A study of Homo sapiens with 8 samples.

Results

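Pseudouridine synthases convert uridine in RNA into pseudouridine, and 10 genes that encode them or their relatives were examined: DKC1, TRUB1, TRUB2, PUS1, PUSL1, PUS3, PUS7, PUS7L, RPUSD1 and PUS10. They were taken by gene symbol as the rows of that name in the deposited count table, whatever their values, and all 10 were found among its 57169 rows. RNA was measured in SW620 and HCT116, human colon cancer cell lines, with 2 libraries in each of 4 groups: SW620 treated with AFZC, SW620 treated with 5-FU, HCT116 treated with AFZC and HCT116 treated with 5-FU. The series title speaks of aptamer-bearing metal-organic framework particles loaded with 5-fluorouracil (5-FU), and AFZC is read here as that preparation, so that all 4 groups received 5-FU in some form. Each agent was given for 24 hours at the IC50 for that line, a dose whose size the labels do not state. Untreated cells and empty particles were not analysed here, so each AFZC value is relative to free 5-FU.

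Pseudouridine is the most common modified nucleotide of cellular RNA and is made by breaking the bond between the uracil base and the sugar and joining the turned base again through carbon. DKC1 works as the catalytic subunit of H/ACA particles, in which a small nucleolar RNA pairs with the target and sets the site, whereas the other synthases recognise tRNA, mitochondrial RNA or mRNA by themselves. 5-FU is converted in cells into a nucleotide that RNA polymerases place in RNA where uridine belongs, and a fluorouridine at a target site can hold a synthase in a stable complex with that RNA. RNA sequencing reads the mRNA of these enzymes and neither the enzyme protein, its complexes with RNA, nor pseudouridine itself.

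The members fall into 5 protein families. In the TruB family, DKC1 (dyskerin, mutated in X-linked dyskeratosis congenita) lies on chromosome X from 154762742 to 154777689 on the plus strand of GRCh38. TRUB1, which modifies the T loop of tRNAs and sites in mRNA, lies on chromosome 10 from 114938193 to 114977676 (plus), and TRUB2, a mitochondrial synthase, on chromosome 9 from 128305161 to 128322742 (minus). In the TruA family, PUS1, a tRNA synthase of nucleus and mitochondria whose loss causes a myopathy with sideroblastic anaemia, lies on chromosome 12 from 131929200 to 131945896 (plus). Its paralogue PUSL1 lies on chromosome 1 from 1308567 to 1311677 (plus), and PUS3, which modifies the anticodon arm of tRNAs, on chromosome 11 from 125893485 to 125903221 (minus). In the TruD family, PUS7, a stand-alone synthase of tRNA and mRNA, lies on chromosome 7 from 105439661 to 105522267 (minus) and its paralogue PUS7L on chromosome 12 from 43718993 to 43758817 (minus). RPUSD1, of the RluA family, lies on chromosome 16 from 784974 to 788397 (minus). PUS10, the only member of its own family and also known for a part in microRNA processing, lies on chromosome 2 from 60940222 to 61018259 (minus).

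Of the members, PUS3, PUS7, TRUB1, TRUB2 and RPUSD1, differed between the lines under both agents, and their promoter windows are shown here because they carry the line difference described further on. The windows run from 250 bases before to 50 bases after a start given by RefSeq on GRCh38.p14, 5′ to 3′ on the gene's own strand. The set of RefSeq windows used here covered 7 of the 10 members and held 2 windows for TRUB2, of which 1 is shown. The TRUB2 window lies wholly inside the gene's span given above, whose start on the minus strand is 128322742. It therefore holds no base upstream of that start.
PUS3 (chr11:125903157-125903456, minus strand): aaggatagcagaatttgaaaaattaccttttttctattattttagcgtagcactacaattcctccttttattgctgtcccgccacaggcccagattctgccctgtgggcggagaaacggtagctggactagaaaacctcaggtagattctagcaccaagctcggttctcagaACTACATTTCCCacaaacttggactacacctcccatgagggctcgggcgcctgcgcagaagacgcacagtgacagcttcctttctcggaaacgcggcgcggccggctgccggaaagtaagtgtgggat
PUS7 (chr7:105522222-105522521, minus strand): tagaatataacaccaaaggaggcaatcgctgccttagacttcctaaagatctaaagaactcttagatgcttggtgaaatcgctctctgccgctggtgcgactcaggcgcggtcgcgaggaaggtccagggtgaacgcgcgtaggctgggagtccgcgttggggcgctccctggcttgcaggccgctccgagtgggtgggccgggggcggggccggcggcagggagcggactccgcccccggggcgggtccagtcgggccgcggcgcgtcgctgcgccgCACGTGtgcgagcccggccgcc
TRUB1 (chr10:114937945-114938244, plus strand): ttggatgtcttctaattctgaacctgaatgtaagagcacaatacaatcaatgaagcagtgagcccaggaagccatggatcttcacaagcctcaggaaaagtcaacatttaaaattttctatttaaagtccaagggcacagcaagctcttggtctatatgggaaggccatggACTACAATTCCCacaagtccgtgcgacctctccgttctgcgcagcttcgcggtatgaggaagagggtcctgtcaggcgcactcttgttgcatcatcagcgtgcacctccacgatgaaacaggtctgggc
TRUB2 (chr9:128322398-128322697, minus strand): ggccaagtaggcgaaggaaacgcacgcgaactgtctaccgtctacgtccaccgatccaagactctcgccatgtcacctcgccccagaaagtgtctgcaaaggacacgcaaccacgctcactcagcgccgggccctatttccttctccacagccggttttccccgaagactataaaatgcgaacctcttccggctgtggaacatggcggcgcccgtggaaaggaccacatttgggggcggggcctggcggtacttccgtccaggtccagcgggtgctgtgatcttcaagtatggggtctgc
RPUSD1 (chr16:788332-788631, minus strand): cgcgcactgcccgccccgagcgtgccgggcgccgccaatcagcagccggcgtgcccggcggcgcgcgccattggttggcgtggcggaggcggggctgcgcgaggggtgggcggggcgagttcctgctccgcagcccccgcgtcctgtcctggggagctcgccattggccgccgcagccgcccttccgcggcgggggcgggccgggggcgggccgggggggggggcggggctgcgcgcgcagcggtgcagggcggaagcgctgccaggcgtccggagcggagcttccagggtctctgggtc
Capitals mark 2 of the 4 letter patterns searched on both strands, the blocks ACTACA and TTCCC with 1 free base between them and the E-box CACGTG, while the GC box GGGCGG and the CCAAT box CCAAT are left in lower case. The patterns were chosen after the windows had been read, and a match describes letters and not a bound site. PUS3 and TRUB1 each held this pair of blocks, 78 and 79 bases before the start, as did 0.78% of 35116 RefSeq promoter windows of this length. PUS7 held CACGTG 28 bases after the start, which 7.26% of the windows held. The GC box was found in PUS3, PUS7, TRUB2 and RPUSD1 and in 45% of all windows, and CCAAT in RPUSD1 and in 34.6% of all windows. DKC1 and PUS10, called between the lines under neither agent, were searched too, in windows not shown. DKC1 also held the GC box and PUS10 also held CCAAT, and neither held CACGTG or the pair of blocks. PUS3 was higher in SW620 and TRUB1 lower, so the members that share the blocks differed in opposite directions between the lines.

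Libraries held 31991561 to 40590291 counts. After a filter on low counts 21378 genes were tested, all 10 members among them, with 189 to 4806 counts per member and library. Marker levels are counts per 1e6 of the library total (CPM), with the totals left unadjusted. Of 12 colon epithelial markers, 10 to 11 exceeded 1 CPM in SW620 and 7 to 8 in HCT116, with CDX1 under 1 CPM in every library and LGALS4, GPA33 and CEACAM5 also under it throughout HCT116. Of 6 leukocyte markers, 1 to 2 exceeded it in SW620, LYZ in every library, and 0 in HCT116. Fibroblast and endothelial lists of 6 and 4 genes had 3 and 2 over 1 CPM in SW620 and 1 to 2 each in HCT116. Whether the libraries of a group were grown as separate cultures is not stated, and the p-values may therefore rest on technical spread.

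All other levels in CPM are counts per 1e6 of the library total, with totals adjusted by TMM factors, which correct for composition. DKC1 stood at 87.1 and 121 CPM in SW620 under AFZC and 147 and 126 CPM under 5-FU, and at 108 and 133 CPM in HCT116 under AFZC and 126 and 110.3 CPM under 5-FU. Both SW620 AFZC libraries were below both SW620 5-FU libraries, while in HCT116 the agents overlapped. TRUB1 stood at 35.9 and 48.2 CPM in SW620 under AFZC and 43.0 and 36.9 CPM under 5-FU, and at 62.7 and 77.3 CPM in HCT116 under AFZC and 65.1 and 61.2 CPM under 5-FU. TRUB2 stood at 26.0 and 26.3 CPM in SW620 under AFZC and 26.4 and 17.6 CPM under 5-FU, and at 46.8 and 54.3 CPM in HCT116 under AFZC and 49.4 and 46.8 CPM under 5-FU. For both genes every SW620 library was below every HCT116 library, and the agents overlapped within each line. In bulk RNA of a culture, fewer cells that express a gene and less RNA per cell cannot be told apart.

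Of the TruA members, PUS1 stood at 31.2 and 37.1 CPM in SW620 under AFZC and 41.8 and 32.3 CPM under 5-FU, and at 53.3 and 52.9 CPM in HCT116 under AFZC and 50.3 and 46.7 CPM under 5-FU. PUS3 stood at 16.5 and 20.3 CPM in SW620 under AFZC and 21.1 and 21.1 CPM under 5-FU, and at 11.4 and 7.96 CPM in HCT116 under AFZC and 10.4 and 8.84 CPM under 5-FU. PUS1 was thus lower in every SW620 library than in any HCT116 library, and PUS3 higher. PUSL1 stood at 11.8 and 15.1 CPM in SW620 under AFZC and 10.4 and 12.7 CPM under 5-FU, and at 16.7 and 12.4 CPM in HCT116 under AFZC and 11.8 and 9.85 CPM under 5-FU. For PUSL1 the lines overlapped under either agent, and the agents did not overlap in HCT116.

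PUS7 stood at 27.9 and 44.0 CPM in SW620 under AFZC and 39.7 and 36.9 CPM under 5-FU, and at 59.2 and 71.5 CPM in HCT116 under AFZC and 58.6 and 58.5 CPM under 5-FU. PUS7L stood at 32.4 and 52.2 CPM in SW620 under AFZC and 53.8 and 41.1 CPM under 5-FU, and at 41.9 and 50.3 CPM in HCT116 under AFZC and 44.6 and 56.7 CPM under 5-FU. Of this pair of paralogues only PUS7 separated the lines, and PUS7L overlapped between lines and between agents. RPUSD1 stood at 42.9 and 52.5 CPM in SW620 under AFZC and 49.5 and 42.0 CPM under 5-FU, and at 62.7 and 81.8 CPM in HCT116 under AFZC and 79.7 and 66.3 CPM under 5-FU. PUS10, the least abundant, stood at 5.91 and 5.47 CPM in SW620 under AFZC and 6.51 and 6.71 CPM under 5-FU, and at 6.63 and 6.19 CPM in HCT116 under AFZC and 6.92 and 8.0 CPM under 5-FU. RPUSD1 was lower in every SW620 library than in any HCT116 library, and PUS10 was lower in both AFZC libraries than in both 5-FU libraries of each line. The tests of AFZC against 5-FU called PUS10 in neither line. Separation in both lines at once was not counted for all genes.

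**Figure D1:**
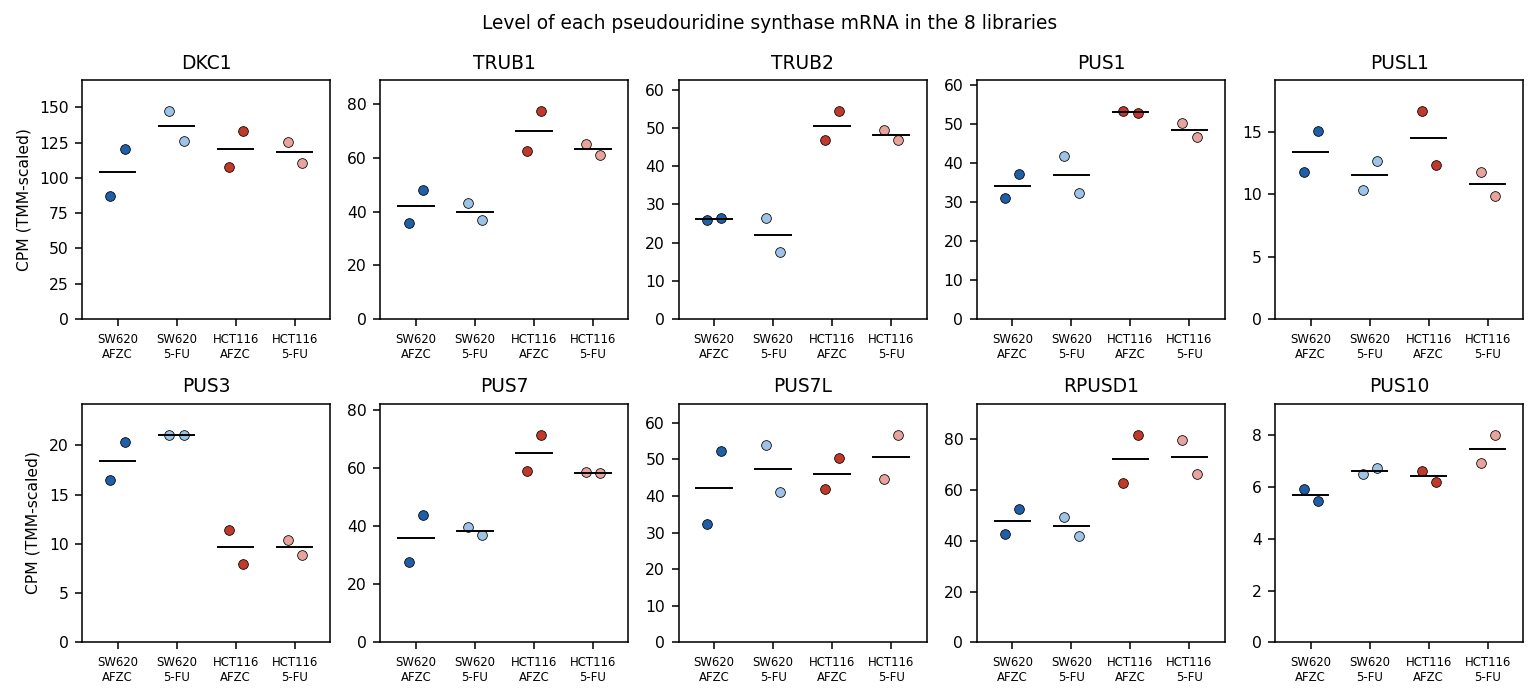
TMM-scaled CPM (linear axes from 0) of each of the 10 genes in the 4 groups, with 1 point per library and a line at the mean of 2 libraries. TRUB1, TRUB2, PUS1, PUS7 and RPUSD1 sit lower in all 4 SW620 libraries than in the HCT116 libraries, and PUS3 sits higher. Separation of the lines within an agent was common among all genes, with shares given in the text.

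Between the 2 libraries of a group the members differed by a median size of 0.20 to 0.33 log2 units. In SW620 under AFZC, replicate 2 was above replicate 1 for 9 of 10 members, by a median log2 difference of 0.33, against 46.6% of all genes tested. In HCT116 under AFZC it was above for 6 of 10, with a median of 0.24, against 46.7% of all genes. Under 5-FU it was above for 2 of 10 in each line, with medians of -0.22 in SW620 and -0.10 in HCT116. The shares of all genes there were 48.7% in SW620 and 47.8% in HCT116. Summed over the 10 genes, the level was 318 and 422 CPM in SW620 under AFZC and 439 and 373 CPM under 5-FU, and 469 and 548 CPM in HCT116 under AFZC and 503 and 473 CPM under 5-FU. The agents overlapped in this sum in both lines, and every SW620 library was below every HCT116 library.

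The comparison of AFZC with 5-FU in SW620 asked whether the particle changes gene expression relative to the free drug. None of the 10 members passed the test, with 0 higher and 0 lower (edgeR's quasi-likelihood test, Benjamini-Hochberg adjusted over all genes), against 18.6% of all genes called, 11.6% higher and 6.95% lower. At an unadjusted p under 0.05 the count was also 0, and with DESeq2 it was 0. DKC1 had the largest difference, a log2 fold change of -0.39 ± 0.185 (SE, 95% interval -0.79 to 0.00460, adjusted p = 0.159), or 104 ± 23.7 CPM under AFZC and 137 ± 15.0 CPM under 5-FU (SD, n = 2 each). Without replicate 2 of SW620 AFZC, the higher of the AFZC libraries, DKC1 was called lower (log2 fold change -0.65, adjusted p = 0.0378). Without replicate 1, the lower one, the log2 fold change was -0.17 (adjusted p = 0.644), and with library totals alone it was -0.026 (adjusted p = 0.951).

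The other 9 members had log2 fold changes in SW620 of -0.22 ± 0.259 for PUS10 to 0.25 ± 0.195 for TRUB2 (SE). All 10 intervals lay within 1 log2 unit of 0, between -0.79 and 0.75, which bounds the change of each member below 2-fold under this model. The members' median was -0.11 and that of all genes tested 0.03, and the median size of the change was 0.18 for the members and 0.47 for all genes. The sizes were not matched for counts: members had at least 189 per library, and the filter on all genes used a minimum of 10. AFZC libraries lay wholly below 5-FU libraries for DKC1, PUS3 and PUS10 and wholly above for 0 members, where 28.4% and 31.5% of all genes did so. TMM factors in SW620 were 1.11 and 1.07 under AFZC and 0.867 and 0.816 under 5-FU. Marker sums, in CPM without TMM factors, also differed between the agents in SW620. The epithelial markers summed to 6150 and 5465 CPM under AFZC and 13190.4 and 13535 CPM under 5-FU, whereas in HCT116 they summed to 8212 and 5220 CPM under AFZC and 4416 and 3681 CPM under 5-FU. The leukocyte markers in SW620 summed to 47.2 and 17.6 CPM under AFZC and 5.01 and 6.65 CPM under 5-FU, of which LYZ made up 44.9 and 16.8 CPM under AFZC and 4.65 and 6.28 CPM under 5-FU. The endothelial markers summed to 20.3 and 14.5 CPM under AFZC and 4.77 and 4.29 CPM under 5-FU, mostly VWF, and the fibroblast markers to 90.5 and 52.9 CPM under AFZC and 45.8 and 46.7 CPM under 5-FU. PTPRC, CD3E, CD68, CDH5 and KDR were under 1 CPM in every SW620 library, and the part of these differences in the results was not tested. With library totals alone the median of all genes moved to 0.40 and that of the members to 0.26. PUS1, PUS3, PUS7, PUS7L and PUS10 then changed sign without being called, and TRUB2 was called higher (log2 fold change 0.62, adjusted p = 0.0445).

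In HCT116 the same comparison again called 0 of the 10 members higher and 0 lower, against 9.61% of all genes, 5.87% higher and 3.74% lower, and 0 members had an unadjusted p under 0.05 or were called with DESeq2. The largest difference was that of PUSL1, with a log2 fold change of 0.43 ± 0.245 (95% interval -0.10 to 0.96, adjusted p = 0.315), or 14.5 ± 3.02 CPM under AFZC and 10.8 ± 1.37 CPM under 5-FU (SD, n = 2 each). PUSL1 shares 10.5% of its exonic bases with ACAP3 and INTS11 on the opposite strand, and the libraries did not keep the strand, so reads of these genes cannot be told apart there. The other 9 members ran from -0.22 ± 0.256 for PUS10 to 0.16 ± 0.199 for PUS7, and DKC1 had 0.03 ± 0.184. The members' median was 0.05 and that of all genes 0, and the median size was 0.13 for the members and 0.39 for all genes, again not matched for counts. PUS1, PUS7 and PUSL1 lay wholly above their 5-FU libraries and PUS10 wholly below, where 28.1% and 27.4% of all genes did so. All 10 intervals lay between -0.77 and 0.96.

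**Figure D2:**
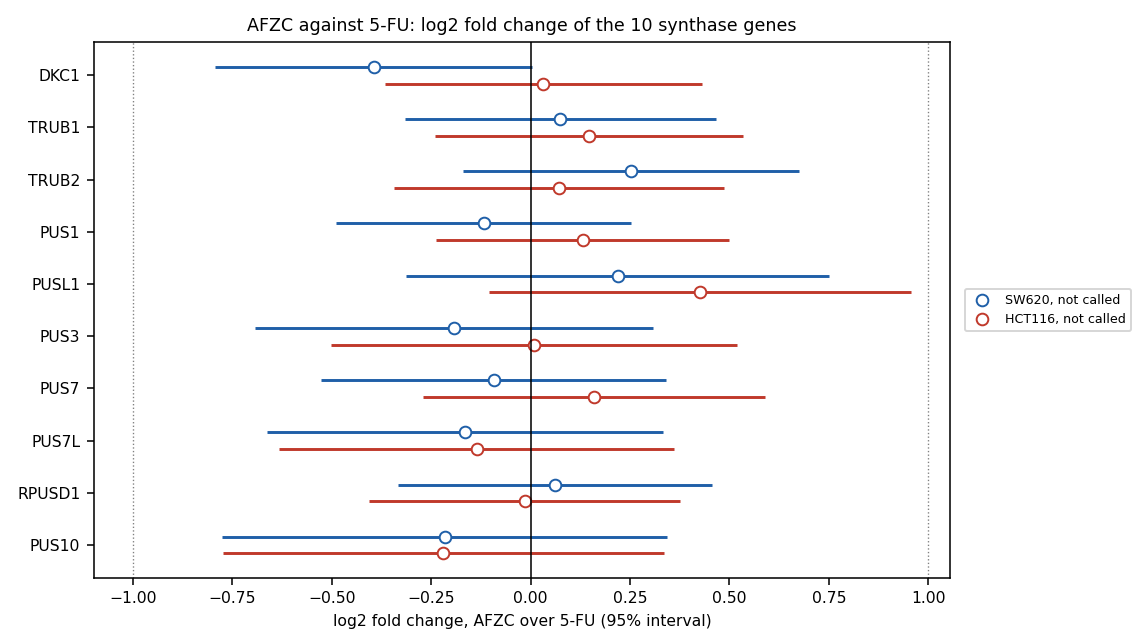
Log2 fold change of AFZC over 5-FU for each gene (x axis, 95% interval as a bar) in SW620 and in HCT116, with open points for genes not called and dotted lines at 1 log2 unit. All 20 points are open and all bars end inside the dotted lines.

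The AFZC effect was also compared between the lines, as the effect in SW620 minus that in HCT116. No member passed this test, with 0 of 10 called against 9.78% of all genes, and 0 had an unadjusted p under 0.05. The differences ran from -0.43 ± 0.261 for DKC1 (95% interval -0.99 to 0.14, adjusted p = 0.341) to 0.18 ± 0.274 for TRUB2 (SE, adjusted p = 0.752). The members' median difference was -0.14 and that of all genes 0.04. The other 8 members lay between these values, and the intervals of all 10 included 0 and stayed within 1 log2 unit of it.

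The comparison of SW620 with HCT116 gave the only calls among the members. Under AFZC, 1 of 10 was higher in SW620 and 5 were lower, against 49.3% of all genes called, 25.1% higher and 24.2% lower. Under 5-FU, 1 was higher and 4 were lower, against 54.8%, 26.5% and 28.2%. Counted in either direction, 6 and 5 of 10 lie near these shares. SW620 libraries lay wholly above HCT116 libraries for 1 member and wholly below for 6 under AFZC. Of all genes, 37.25% and 37.16% did so. For 5-FU the members' counts were 2 and 6, and the shares of all genes were 39.003% and 41.02%. Members and all genes were not tested against each other here, and separation over both agents at once was not counted for all genes. Lower calls outnumbered higher ones among the members under both agents, and this was not tested against all genes. Each line stands for 1 genetic background, and the tests measure libraries within it.

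TRUB2, the mitochondrial synthase, was the lowest relative to HCT116 under both agents. It averaged 26.2 ± 0.212 CPM in SW620 and 50.6 ± 5.29 CPM in HCT116 under AFZC (SD, n = 2), which is -0.95 ± 0.195 in log2 fold change (SE) with an adjusted p of 0.00134. Under 5-FU it averaged 22.0 ± 6.24 CPM in SW620 and 48.1 ± 1.86 CPM in HCT116, which is -1.13 ± 0.196 with an adjusted p of 0.00032. It was called under 14 of 14 other settings with either agent. TRUB1 was also lower, with -0.73 ± 0.180 under AFZC (adjusted p = 0.00449) and -0.66 ± 0.180 under 5-FU (adjusted p = 0.00747).

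PUS3 was the only member called higher in SW620. It averaged 18.4 ± 2.70 CPM in SW620 and 9.69 ± 2.45 CPM in HCT116 under AFZC (1.90-fold, log2 fold change 0.93 ± 0.235, adjusted p = 0.0055), and 21.1 ± 0.0101 CPM in SW620 and 9.64 ± 1.12 CPM in HCT116 under 5-FU (2.18-fold, 1.13 ± 0.236, adjusted p = 0.00133). Under AFZC the call was lost without replicate 2 of HCT116 (adjusted p = 0.0544), and under 5-FU it was kept under 14 of 14 settings. No exon of PUS3, PUS7 or TRUB1 overlaps another row of the table, whereas RPUSD1 shares 5.13% of its exonic bases with CHTF18, PUS10 3.83% with PEX13 and TRUB2 3.38% with COQ4, all on the opposite strand.

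PUS7 was lower in SW620 with log2 fold changes of -0.86 ± 0.201 under AFZC (adjusted p = 0.0032) and -0.61 ± 0.201 under 5-FU (adjusted p = 0.0202). RPUSD1 was lower with -0.60 ± 0.182 (adjusted p = 0.0154) and -0.67 ± 0.183 (adjusted p = 0.00719). PUS1 was lower under AFZC (-0.64 ± 0.171, adjusted p = 0.00785) and was not called under 5-FU (-0.39 ± 0.171, adjusted p = 0.0716), a contrast between agents that its own test did not call (-0.25 ± 0.242, adjusted p = 0.58). DKC1 (-0.22 ± 0.184 and 0.21 ± 0.184), PUSL1 (-0.11 ± 0.244 and 0.09 ± 0.246), PUS7L (-0.12 ± 0.229 and -0.09 ± 0.229) and PUS10 (-0.17 ± 0.258 and -0.18 ± 0.257) were called under neither agent, in that order of AFZC and 5-FU. The line comparisons use different libraries, and their signs differed for DKC1 and PUSL1, neither of them called.

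These calls rest on few libraries. Under 5-FU the count of members called fell to 2, TRUB2 and PUS3, without replicate 1 of HCT116 or without replicate 2 of SW620, where TRUB1, RPUSD1 and PUS7 lost their calls with adjusted p of 0.0559 to 0.115. PUS7 also lost its call without either of the other 5-FU libraries. PUS1 was called lower under 5-FU with library totals alone, with the 2 groups alone and without replicate 1 of SW620 (adjusted p of 0.00562 to 0.0451). Under AFZC, PUS1 lost its call without replicate 1 of SW620 (adjusted p = 0.0619), and RPUSD1 without that library or replicate 2 of HCT116 (adjusted p up to 0.146).

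**Figure D3:**
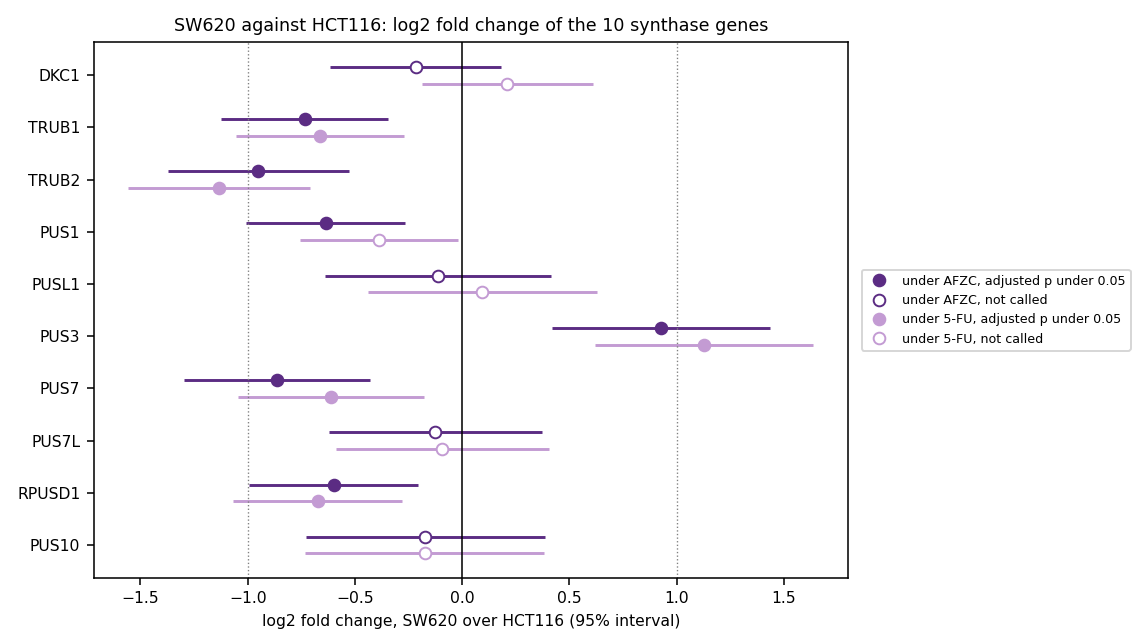
Log2 fold change of SW620 over HCT116 for each gene (x axis, 95% interval as a bar) under AFZC and under 5-FU, with filled points for genes with an adjusted p under 0.05 and open points for the others. TRUB2 lies farthest to the left at -0.95 and -1.13, and PUS3 is the only gene with filled points on the right.

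Per length, as TPM (counts divided by length and scaled to a total of 1e6) from the exon lengths of the table, DKC1 was first and PUS10 last in all 4 groups. TMM factors were not applied to TPM, which orders genes within a group here and does not compare the agents. In SW620 the means of DKC1 and PUS3 were higher under AFZC than under 5-FU in TPM and lower in CPM. Over the 8 libraries DKC1 ran from 80.6 to 113 TPM with a median of 91.1, followed by RPUSD1 (43.4 to 100.2, median 72.9) and TRUB1 (29.3 to 72.8, median 53.6). In SW620 DKC1 had 98.0 ± 21.2 TPM under AFZC and 95.4 ± 13.6 TPM under 5-FU, and RPUSD1, the next, had 68.3 ± 8.89 and 48.5 ± 7.26 TPM, with no overlap between the genes (SD, n = 2). In HCT116 DKC1 had 94.1 ± 19.0 TPM under AFZC and 91.1 ± 2.93 TPM under 5-FU, and RPUSD1 had 85.6 ± 20.5 and 85.4 ± 5.90 TPM, where the libraries of both genes overlapped. PUS10 had 2.51 to 3.55 TPM and was separate from PUS7L, the gene above it with 8.39 to 14.6 TPM, in every group.

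The middle of the order differed between the lines. PUS3 was the fourth gene in SW620 under both agents, with 36.4 ± 4.86 TPM under AFZC and 30.7 ± 1.03 TPM under 5-FU, and it ranked 8 and 7 in HCT116 with 15.6 ± 3.11 and 15.5 ± 0.871 TPM. Its libraries overlapped those of PUS7 below it in SW620 under AFZC and those of TRUB1 above it under 5-FU. TRUB2 ranked 8 in SW620, with 16.9 ± 0.0803 TPM under AFZC and 10.6 ± 3.33 TPM under 5-FU, and 6 in HCT116, with 27.0 ± 4.30 and 25.5 ± 0.566 TPM. Its libraries overlapped those of PUSL1 and PUS7L in SW620 under 5-FU and those of PUS1 in HCT116 under AFZC. In SW620 under AFZC and in HCT116 under 5-FU they overlapped neither neighbour in the order. PUS7, PUS1, PUSL1 and PUS7L had medians of 40.2, 26.4, 15.8 and 10.7 TPM over the 8 libraries. The low place of PUS7L per length, against 32.4 to 56.7 CPM, goes with an exon length of 14037 bases, the longest of the members, of which the table counts every annotated exon.

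**Figure D4:**
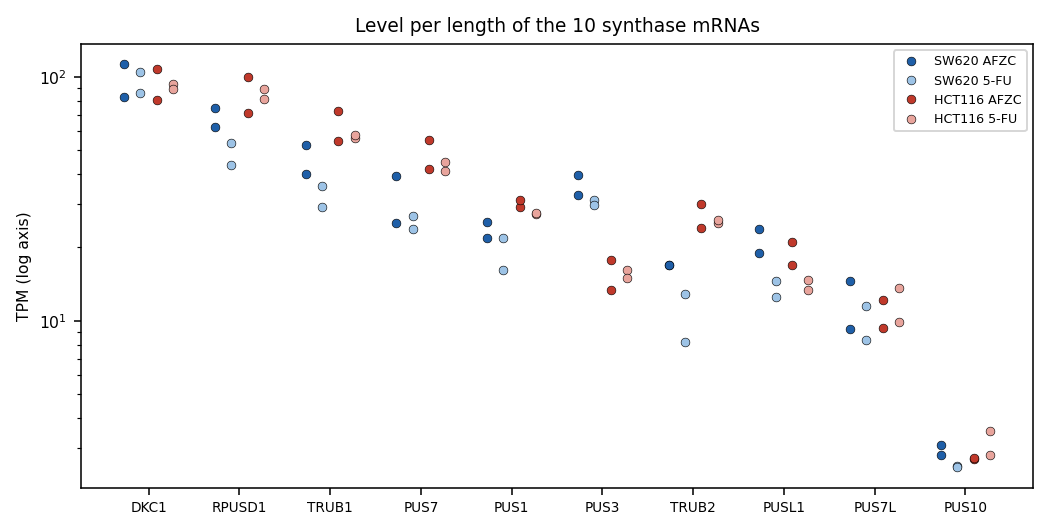
TPM (log axis, without TMM factors) of the 10 genes in order of their mean over the groups, with 1 point per library and 4 colours for the groups. DKC1 leads at 80.6 to 113 TPM, PUS10 is last at 2.51 to 3.55 TPM, and the SW620 points of PUS3 lie above its HCT116 points.

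The protein partners of DKC1 in H/ACA particles are NHP2, NOP10 and GAR1, with NAF1 and SHQ1 as assembly factors and WRAP53 and TERT as telomerase proteins. Of these 7 genes, 1 was higher and 0 were lower under AFZC in SW620, and the same counts were found in HCT116, against 11.6% and 5.87% of all genes higher. That gene was TERT, the reverse transcriptase of telomerase, of which DKC1 is a part. TERT had 10.6 and 5.05 CPM under AFZC and 1.93 and 1.78 CPM under 5-FU in SW620 (log2 fold change 2.07 ± 0.352, adjusted p = 0.00167), a call kept under 14 of 14 settings. Without replicate 1 of SW620 AFZC the log2 fold change was 1.45, and without replicate 2 it was 2.51. In HCT116 it had 15.9 and 15.6 CPM under AFZC and 6.11 and 7.97 CPM under 5-FU (1.16 ± 0.325, adjusted p = 0.0407), and this call was lost with a replicate block and without each of the 4 HCT116 libraries (adjusted p up to 0.313). The effects on TERT were not called different between the lines (0.91 ± 0.472, adjusted p = 0.255).

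The core partners of DKC1 were not called with AFZC in either line. NHP2 had log2 fold changes of -0.30 ± 0.161 in SW620 and -0.13 ± 0.159 in HCT116, NOP10 of -0.31 ± 0.167 and 0.18 ± 0.166, and GAR1 of -0.12 ± 0.199 and 0.13 ± 0.195. The list's median was -0.12 in SW620 and 0.16 in HCT116, against 0.03 and 0 over all genes. Between the lines, 4 of the 7 were lower in SW620 and 0 higher under both agents, where 24.2% of all genes were lower under AFZC and 28.2% under 5-FU: NHP2 (-1.07 ± 0.162 under AFZC and -0.90 ± 0.161 under 5-FU), GAR1 (-1.11 ± 0.199 and -0.86 ± 0.198), SHQ1 (-0.65 ± 0.186 and -0.98 ± 0.188) and TERT (-1.01 ± 0.323 and -1.92 ± 0.352), with adjusted p of 0.000134 to 0.0197. Under AFZC the call of SHQ1 was lost without replicate 2 of either line (adjusted p up to 0.0823) and that of TERT without replicate 2 of SW620 or either HCT116 library (adjusted p up to 0.140). DKC1 itself was called in neither comparison. The guide RNAs could not be followed: SNORA56 and SNORA36A, which share exonic bases with DKC1, had 0 counts, and TERC, the RNA of telomerase, had 4 counts over all 8 libraries.

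Of 3 further synthases of the RluA family, RPUSD2, RPUSD3 and RPUSD4, 1 was lower and 0 were higher under AFZC in each line, against 6.95% of all genes lower in SW620 and 3.74% in HCT116. RPUSD4, a mitochondrial synthase, had 28.3 and 30.3 CPM under AFZC and 63.6 and 50.8 CPM under 5-FU in SW620 (log2 fold change -0.96 ± 0.196, adjusted p = 0.00495), and 17.4 and 25.1 CPM under AFZC and 36.5 and 37.6 CPM under 5-FU in HCT116 (-0.80 ± 0.197, adjusted p = 0.0224). In both lines the agents did not overlap, and the direction held under 14 of 14 settings. Its call was lost in SW620 with library totals alone and without replicate 1 of 5-FU (adjusted p up to 0.0535), and in HCT116 without replicate 1 of AFZC or either 5-FU library (adjusted p up to 0.168). RPUSD4 shares 5.95% of its exonic bases with FAM118B on the opposite strand. Between the lines RPUSD2 was lower in SW620 under AFZC (-0.59 ± 0.211, adjusted p = 0.0341, a call lost under 7 of 14 settings) and under 5-FU (-0.93 ± 0.213, adjusted p = 0.00243), and RPUSD4 was higher under 5-FU (0.63 ± 0.195, adjusted p = 0.0154, lost under 4 of 14 settings). In that comparison 49.3% of all genes were called in either direction under AFZC and 54.8% under 5-FU.

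Box C/D particles guide ribose methylation beside the H/ACA particles, and 4 of their proteins were counted. Under AFZC 2 were lower and 0 higher in SW620, and 1 was lower and 0 higher in HCT116, against 6.95% and 3.74% of all genes lower. FBL, the methyltransferase, had log2 fold changes of -0.60 ± 0.170 in SW620 (adjusted p = 0.027) and -0.63 ± 0.171 in HCT116 (adjusted p = 0.0354), and SNU13, which binds the guide RNA, had -0.64 ± 0.160 in SW620 (adjusted p = 0.0153). These 3 calls were lost under 4 to 5 of 14 settings. Between the lines 1 was higher and 1 lower in SW620 under AFZC, and 2 were higher and 1 lower under 5-FU. The shares of all genes called in either direction were 49.3% and 54.8%. NOP56 was lower in SW620 and FBL higher under both agents, and SNU13 was higher under 5-FU (1.07 ± 0.161, adjusted p = 0.000104). FBL had 0.46 ± 0.170 under AFZC and 0.44 ± 0.170 under 5-FU (adjusted p = 0.0378 and 0.0441, lost under 7 and 6 of 14 settings), and NOP56 had -0.95 ± 0.202 and -0.63 ± 0.201 (adjusted p = 0.00177 and 0.0179, of which that under 5-FU was lost under 3 of 14 settings).

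Among 14 other enzymes that modify uridine in tRNA, 0 were called under AFZC in SW620, with 3 at an unadjusted p under 0.05, and 1 was higher and 0 lower in HCT116, against 18.6% of all genes called in SW620 and 5.87% called higher in HCT116. The higher one was MTO1, a mitochondrial tRNA enzyme, with 50.1 and 40.8 CPM under AFZC and 25.7 and 22.6 CPM under 5-FU (log2 fold change 0.91 ± 0.178, adjusted p = 0.00772). Its call was lost without replicate 1 of AFZC or either 5-FU library of HCT116 (adjusted p up to 0.0943), and the effects of the 2 lines were not called different (-0.72 ± 0.251, adjusted p = 0.0928). Between the lines 2 were higher and 4 lower in SW620 under AFZC, and 3 higher and 4 lower under 5-FU, against 49.3% and 54.8% of all genes called in either direction. CTU2, of the enzyme that thiolates the wobble uridine, was the lowest, with 5.71 and 6.58 CPM in SW620 and 33.9 and 31.0 CPM in HCT116 under AFZC (-2.40 ± 0.205, adjusted p = 8.93e-07) and 7.61 and 6.59 CPM in SW620 and 28.3 and 26.3 CPM in HCT116 under 5-FU (-1.95 ± 0.202, adjusted p = 4.15e-06).

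Likeness between genes was measured as the root-mean-square difference, over the 8 libraries, of log2 CPM after the gene's own mean was taken away. Among 6169 protein-coding genes with a mean log2 CPM of at least 5, the nearest to DKC1 were MYC at 0.0668, PYURF at 0.0886, KLF10 at 0.103 and SMYD5 at 0.105. Rows with clone, antisense, LINC or MIR names were left out. MYC had 314 and 464 CPM in SW620 under AFZC and 575 and 464 CPM under 5-FU, and 445 and 478 CPM in HCT116 under AFZC and 473 and 441 CPM under 5-FU. All 5 genes were lowest in replicate 1 of SW620 under AFZC. The values come from the same 8 libraries and share their scaling and depth, so this is a description.

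**Figure D5:**
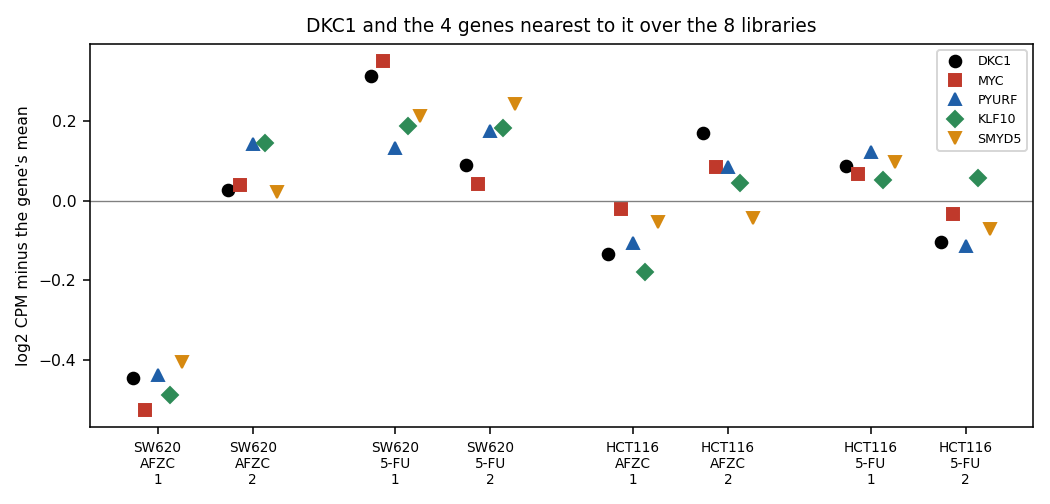
Log2 CPM minus the gene's own mean over 8 libraries (y axis) for DKC1 and the 4 genes nearest to it, by library. All 5 genes are lowest in replicate 1 of SW620 under AFZC, where DKC1 lies at -0.44.

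Among the members themselves, TRUB1 and RPUSD1 were the nearest pair at 0.0892, against a median of 0.357 over 45 pairs. TRUB1 was also the nearest member to PUS7 at 0.100, to PUS1 at 0.147 and to TRUB2 at 0.237, the genes that stood lower in SW620. DKC1 and PUS7L were nearest to each other at 0.187. PUS10 was nearest to PUS7L at 0.250 and PUSL1 to PUS10 at 0.341. PUS3 stood farthest from the rest, with PUSL1 as its nearest member at 0.567, and the largest distance of any pair was 1.09.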

How the data were processed

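One table deposited by the authors holds unnormalised counts per gene for the 8 libraries, with exon lengths in bases as another column, and every per-sample column was matched to a library (0 left over). Per the labels' protocols, poly(A) RNA was selected and strand was not kept. Per the submitters' processing notes, the tools were HISAT2, STAR and featureCounts, with FastQC, Trimmomatic and cutadapt before them and edgeR and DESeq2 after, on GRCh38, and the sources used here do not say which aligner made the counts. The steps here used edgeR 4.0.16 in R 4.3.3: filterByExpr with a minimum count of 10, TMM scaling, and robust quasi-likelihood fits of 4 group means to all 8 libraries. Two-sided tests were adjusted by Benjamini-Hochberg over 21378 genes and a threshold of 0.05. Standard errors are the log2 fold change over the square root of F, and intervals (95%) use a t distribution with the fit's total degrees of freedom. The coefficient of variation at the common dispersion was 19.9%. The fit was tested on simulated counts. The 2 libraries of a group were not copies of each other, since chi-square per degree of freedom within groups was 20.1 to 53.3. Alternatives were DESeq2 1.42.0, RLE factors, library totals alone, no filter, a replicate block, the 2 groups alone and each library left out. Named genes are the 10 members, called members of 4 companion lists (at most 4 per list and comparison), NHP2, NOP10, GAR1 and the 4 genes nearest to DKC1. SNORA56, SNORA36A and TERC were named outside this rule, after their values were seen. Members and lists were chosen with earlier results of these data known.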

Additional observations from a re-analysis of the deposited data

Results flagged for a closer look

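The effect of AFZC on SNU13, a box C/D particle protein, differed between the lines by the test of the difference itself: the log2 effect in SW620 minus that in HCT116 was -0.87 ± 0.226 (SE, edgeR's quasi-likelihood test, adjusted p = 0.0303). SNU13 had 155 and 196 CPM under AFZC and 266 and 281 CPM under 5-FU in SW620, and 152 and 154 CPM under AFZC and 139 and 122 CPM under 5-FU in HCT116. The call was lost under 7 of 13 other settings (adjusted p up to 0.137), among them library totals alone and each HCT116 5-FU and SW620 5-FU library left out. No such difference was called among the 10 synthase genes.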

How the results depend on the processing

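The members' counts called under AFZC were 0 to 1 in SW620 with a library left out and 1 with library totals alone, and 0 in HCT116 under all 14 other settings. For SW620 against HCT116 the counts were 2 to 5 under 5-FU with a library left out. The labels number the libraries and do not say whether equal numbers are paired. Correlations of deviations between groups were -0.10 to 0.095 over all genes tested, which cannot exclude a pairing. With a replicate block the counts of members called stayed at 0, 0 and 0 for the AFZC comparisons, 5 under 5-FU and 6 under AFZC. Over all genes, calls ran from 1583 to 5586 (main 3968) in SW620, from 305 to 3064 (main 2054) in HCT116 and from 757 to 3128 (main 2091) for the difference. Uncalled members changed sign in places. In HCT116, PUS3 had -0.00109 with RLE factors, -0.0165 without the filter and -0.000971 with DESeq2, and RPUSD1 had 0.0112 with library totals alone. With library totals alone in SW620, PUS1, PUS3, PUS7, PUS7L and PUS10 had 0.25, 0.18, 0.28, 0.20 and 0.16, and between the lines under 5-FU DKC1 and PUSL1 had -0.085 and -0.21. With a library left out, log2 fold changes in HCT116 ran from -0.15 to 0.17 for DKC1, -0.28 to 0.22 for PUS3, -0.0081 to 0.28 for PUS7, -0.30 to 0.030 for PUS7L, -0.034 to 0.28 for TRUB1, -0.063 to 0.17 for TRUB2 and -0.24 to 0.15 for RPUSD1. In SW620 they ran from -0.30 to 0.082 for PUS1, -0.46 to 0.21 for PUS7, -0.55 to 0.15 for PUS7L, -0.15 to 0.28 for TRUB1, -0.015 to 0.58 for TRUB2 and -0.093 to 0.21 for RPUSD1, and for the difference from -0.084 to 0.51 for TRUB2, -0.41 to 0.096 for PUS3, -0.60 to 0.065 for PUS7, -0.40 to 0.30 for PUS7L, -0.082 to 0.10 for PUS10, -0.38 to 0.036 for PUSL1, -0.28 to 0.15 for TRUB1 and -0.090 to 0.31 for RPUSD1. For the difference with library totals alone, PUS1, PUS3, PUS7, PUS7L, PUSL1 and TRUB1 had 0.098, 0.15, 0.094, 0.31, 0.15 and 0.27. Between the lines they ran under AFZC from -0.47 to 0.010 for DKC1, -0.51 to 0.19 for PUS7L and -0.30 to 0.11 for PUSL1, and under 5-FU from -0.30 to 0.090 for PUS7L and -0.055 to 0.23 for PUSL1. Apart from these and the changes of call named in the report, members kept their direction and side of the threshold; the cause of the changes was not tested. With 2 libraries a group, the members' intervals for AFZC against 5-FU ran from -0.79 to 0.75 in SW620 and from -0.77 to 0.96 in HCT116, and changes inside a gene's own interval are not excluded.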
